A study of Mus musculus with 8 samples.

Results

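Olfactory ensheathing glia genes are the 8 genes Sox10, Erbb3, S100b, Fabp7, Gpr37l1, Npy, Frzb and Matn4, picked by symbol from the 25913 genes of the deposited count table. RNA of dissected olfactory epithelium was sequenced, from mice of strain C57BL/6J at an age of 40 weeks, in a study of mice that lack the insulin-like growth factor 1 receptor, Igf1r, in olfactory sensory neurons. The knockout is described as homozygous and tissue-specific, and the OMP of its name is the olfactory marker protein gene, which is active in mature olfactory sensory neurons. The groups are named by the library titles, 4 libraries titled OMP_IGF1R (numbers 11, 12, 17 and 18) and 4 titled IGF1R_flfl (numbers 1, 2, 3 and 13). The genotype field goes against these titles: it names the libraries titled OMP_IGF1R as the floxed control and those titled IGF1R_flfl as the knockout. A direction given for the libraries titled OMP_IGF1R is therefore a direction between titles, and which genotype it belongs to cannot be told apart here. Nothing in the labels says that the libraries came from separate mice, so the p-values reflect how far these libraries vary, and that variation may be technical.

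Ensheathing glia are neural crest-derived cells that wrap the bundled axons of olfactory sensory neurons on their way through the lamina propria into the olfactory bulb. Sox10 is the transcription factor that sets and keeps their glial identity, and they share many genes with Schwann cells of peripheral nerves. They do not make the olfactory marker protein, so a change of their RNA after deletion of a gene in mature sensory neurons would be a change in neighbouring cells. None of the 8 genes belongs to ensheathing glia alone: S100b, Fabp7 and Gpr37l1 are also well-known genes of astrocytes, Npy of neurons, Erbb3 of epithelia, and Frzb and Matn4 of connective tissue and cartilage.

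The whole epithelium was measured, and the glia are one part of it. Total counts ran from 18802471 to 25585192 per library titled OMP_IGF1R and from 23176815 to 27793375 per library titled IGF1R_flfl. Igf1r stood at 49.6, 43.9, 34.5 and 40.5 CPM (counts scaled to a common library size) in OMP_IGF1R 11, 12, 17 and 18, and at 72.9, 55.5, 69.9 and 67.9 CPM in IGF1R_flfl 1, 2, 3 and 13, so that it was lower where the genotype field gives the control (log2 fold change -0.66, edgeR adjusted p = 0.00989), but not under scaling to mature neuron genes (-0.0074, edgeR adjusted p = 0.960). Omp, the olfactory marker protein gene, was lower under both, at -1.45 and -0.79 (edgeR adjusted p = 0.00088 and 0.000105). One library stood apart in glial genes of the brain. In IGF1R_flfl 2 the oligodendrocyte list summed to 1658 CPM and the list of olfactory bulb neurons to 209.7 CPM, against up to 426 and 151 CPM in the other 7 libraries. Counts of called ensheathing glia genes, and most of their log2 fold changes, are given with and without that library. Group means per kilobase and per read of Sox10 are given only with it. OMP_IGF1R 17 stood apart in skeletal muscle genes (203 CPM, against up to 8.42 CPM in the other 7), and with both libraries left out edgeR again called 0 of the 8 genes, beside 7.92% of all genes (2.75% higher, 5.17% lower).

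All 8 genes passed the filter on low counts, and edgeR called 0 of 8 at an adjusted p under 0.05, while 8.42% of the 17381 genes tested did (2.87% higher and 5.56% lower in OMP_IGF1R). DESeq2 and limma voom also called 0 of the 8, where they called 12.3% and 10.6% of all genes. An unadjusted edgeR p under 0.05 was reached by 0 of 8 members and by 23.2% of all genes. The groups overlapped for each of the 8 genes, and they did not overlap for 16.9% of all genes, 6.57% with OMP_IGF1R above. A count of 0 among 8 genes cannot be told apart from such shares. Summed over the 8 genes, expression was 387, 370.4, 353 and 325 CPM in OMP_IGF1R 11, 12, 17 and 18, and 309, 462, 312 and 358 CPM in IGF1R_flfl 1, 2, 3 and 13. The means were 359 ± 26.4 CPM in the libraries titled OMP_IGF1R and 360.2 ± 71.7 CPM in those titled IGF1R_flfl (SD, n = 4 each). Over IGF1R_flfl 1, 3 and 13 alone the mean was 326 ± 27.7 CPM (SD), so the near equality of the means rests on IGF1R_flfl 2. Scaling by the mature neuron genes instead of TMM put the median of all log2 fold changes at 0.63. Under it edgeR called 14030 of the 17381 genes, 13946 of them higher. It called 5 of the 8 members (Sox10, Npy, Frzb, Erbb3 and Matn4, all higher), and the 8 values had a median of 0.68. In bulk tissue, fewer glia and less RNA per glial cell cannot be told apart, in either direction.

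**Figure D1:**
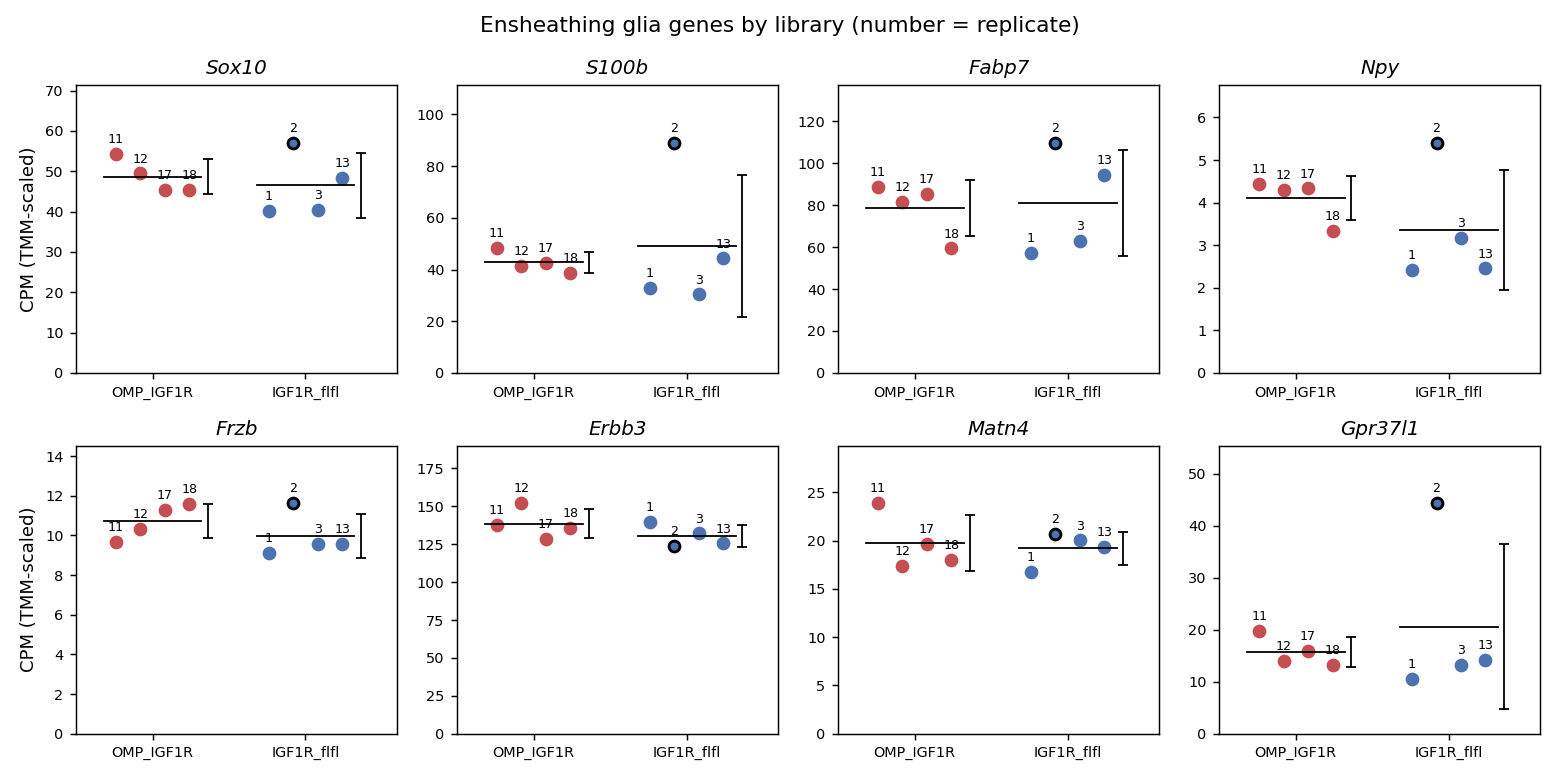
CPM (TMM-scaled) of the 8 ensheathing glia genes, 1 panel per gene, with each point a library, each line a group mean, each bar the SD (n = 4) and a ring around IGF1R_flfl 2, the libraries titled OMP_IGF1R on the left and those titled IGF1R_flfl on the right. IGF1R_flfl 2 is the highest point for 6 of the 8 genes, at 44.3 CPM for Gpr37l1 against 10.5 to 14.3 CPM in the rest of its group, and the groups overlap in every panel.

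Sox10 (ENSMUSG00000033006, GRCm38 chromosome 15, 79154913 to 79164490) is the lineage factor of the group. It stood at 54.4, 49.5, 45.4 and 45.3 CPM in OMP_IGF1R 11, 12, 17 and 18, and at 40.1, 57.1, 40.4 and 48.3 CPM in IGF1R_flfl 1, 2, 3 and 13. The libraries titled OMP_IGF1R lay close together, and those titled IGF1R_flfl held both the highest and the lowest value. Its log2 fold change, OMP_IGF1R over IGF1R_flfl as in all that follows, was 0.06 (SE 0.116, 95% interval -0.19 to 0.32, edgeR adjusted p = 0.785), which as a fold runs from 0.874 to 1.25. Without IGF1R_flfl 2 it was 0.19 (edgeR adjusted p = 0.233).

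Erbb3 (ENSMUSG00000018166, chromosome 10, 128567523 to 128589652) encodes the receptor through which axonal neuregulin keeps Schwann-lineage glia alive, and which signals in a pair with Erbb2. It was the member with the most reads, 2702 to 4035 per library. Erbb3 stood at 137.9, 152.0, 128.7 and 135.9 CPM in OMP_IGF1R 11, 12, 17 and 18, and at 139.8, 124.1, 132.1 and 125.5 CPM in IGF1R_flfl 1, 2, 3 and 13. The groups overlapped, OMP_IGF1R 12 was the highest library, and IGF1R_flfl 2, highest for Sox10, was the lowest here. Its log2 fold change of 0.09 had the narrowest interval of the 8 (SE 0.0647, -0.06 to 0.23, edgeR adjusted p = 0.456). As a fold, the interval runs from 0.962 to 1.17.

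S100b, Fabp7 and Gpr37l1 are the 3 members that the glia share most with astrocytes. The 250 bases upstream of S100b and Gpr37l1, and the 208 upstream of Fabp7, are shown as examples. All 3 hold the CCAAT box, a common promoter element, as do the promoters of Npy and Matn4. The sequences are from RefSeq (GRCm38.p6), 5′ to 3′ on the strand of the gene, with CCAAT or its reverse complement ATTGG in capitals. They are the windows chr10:76253586-76253835 for S100b (plus strand), chr10:57784673-57784880 for Fabp7 (plus strand) and chr1:135167682-135167931 for Gpr37l1 (minus strand).
S100b: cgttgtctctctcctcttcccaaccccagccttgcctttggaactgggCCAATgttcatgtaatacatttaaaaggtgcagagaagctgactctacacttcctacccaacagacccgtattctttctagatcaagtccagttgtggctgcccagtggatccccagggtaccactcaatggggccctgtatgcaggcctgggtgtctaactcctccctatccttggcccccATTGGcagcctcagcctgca
Fabp7: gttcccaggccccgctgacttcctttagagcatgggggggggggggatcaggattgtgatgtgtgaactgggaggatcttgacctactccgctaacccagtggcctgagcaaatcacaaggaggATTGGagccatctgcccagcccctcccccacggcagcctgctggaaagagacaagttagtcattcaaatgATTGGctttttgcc
Gpr37l1: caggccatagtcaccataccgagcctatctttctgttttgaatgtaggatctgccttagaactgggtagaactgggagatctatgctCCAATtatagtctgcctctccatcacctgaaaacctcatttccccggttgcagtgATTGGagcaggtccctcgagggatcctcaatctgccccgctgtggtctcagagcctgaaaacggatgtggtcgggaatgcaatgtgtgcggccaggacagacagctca
Positions are counted from the start site in RefSeq, with negative ones upstream. That site is the deposited gene's first base for Gpr37l1, lies 17 bases upstream of it for S100b, and lies 42 bases inside the deposited bounds for Fabp7, whose window stops at those bounds. In these windows the motif begins at -202 and -20 in S100b, at -126 and -56 in Fabp7 and at -163 and -108 in Gpr37l1. CCAAT, searched on both strands with no overlap with another motif, was in the 300-base promoters of 5 of the 6 members that have one in the table, and in 37.4% of the 32851 promoters of all genes. The core letters of SOX sites, ACAAAG and ACAATG, were in 0 of the 7 member promoters on either strand, and either one was in 28.6% of all promoters (18.7% for ACAAAG, 12.6% for ACAATG). The TATA letters TATAAA were in 0 of 6 members and 13.6% of all promoters. CCAAT and TATAAA were chosen after the sequences were seen, and letters in a window are neither a site nor a cause.

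S100b (ENSMUSG00000033208, chromosome 10, 76253853 to 76261159) encodes a calcium-binding protein used as a glial marker. It stood at 48.4, 41.4, 42.5 and 38.7 CPM in OMP_IGF1R 11, 12, 17 and 18, and at 32.8, 89.1, 30.4 and 44.3 CPM in IGF1R_flfl 1, 2, 3 and 13. IGF1R_flfl 2 alone exceeded every library titled OMP_IGF1R, and IGF1R_flfl 1 and 3 lay below them all. The log2 fold change was -0.20 (SE 0.348, 95% interval -1.02 to 0.62, edgeR adjusted p = 0.776), and without IGF1R_flfl 2 it had the other sign, 0.27 (edgeR adjusted p = 0.247). Dip2a, on the opposite strand, shares 1731 bases of annotated span with S100b and stood at 37.6 to 51.8 CPM. The strand setting of the counting is not given in the sources used here, so some reads of the pair may not be told apart.

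Fabp7 (ENSMUSG00000019874, chromosome 10, 57784881 to 57788450) encodes the brain fatty acid-binding protein, a carrier of long-chain fatty acids in radial glia, astrocytes and ensheathing glia. Fabp7 stood at 88.9, 81.4, 85.5 and 59.4 CPM in OMP_IGF1R 11, 12, 17 and 18, and at 57.2, 109.9, 62.8 and 94.3 CPM in IGF1R_flfl 1, 2, 3 and 13. OMP_IGF1R 18 lay well below the rest of its group, and the libraries titled IGF1R_flfl fell into a high pair (2 and 13) and a low pair (1 and 3). Its log2 fold change was -0.04 (SE 0.227, 95% interval -0.56 to 0.48, edgeR adjusted p = 0.937) and 0.15 without IGF1R_flfl 2 (edgeR adjusted p = 0.688).

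Gpr37l1 (ENSMUSG00000026424, chromosome 1, 135160234 to 135167681) encodes a G protein-coupled receptor of glia for which prosaposin has been proposed as a ligand. It stood at 19.7, 14.1, 15.9 and 13.2 CPM in OMP_IGF1R 11, 12, 17 and 18, and at 10.5, 44.3, 13.2 and 14.3 CPM in IGF1R_flfl 1, 2, 3 and 13. One library of 8, IGF1R_flfl 2, carried the whole excess of its group mean, and the other 7 lay between 10.5 and 19.7 CPM. The log2 fold change was -0.39 (SE 0.482, 95% interval -1.53 to 0.75, edgeR adjusted p = 0.683), the widest interval of the 8 genes. Without IGF1R_flfl 2 the sign was the other one, with 0.32 (SE 0.155, edgeR adjusted p = 0.237).

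Npy (ENSMUSG00000029819, chromosome 6, 49822710 to 49829507) encodes neuropeptide Y, which ensheathing glia make as well as neurons. It had the fewest reads of the 8 genes, 54 to 142 per library, and 54 reads alone have an exact 95% Poisson interval of 40.6 to 70.5 reads, which covers counting error only. Npy stood at 4.44, 4.30, 4.34 and 3.34 CPM in OMP_IGF1R 11, 12, 17 and 18, and at 2.43, 5.41, 3.17 and 2.45 CPM in IGF1R_flfl 1, 2, 3 and 13. Each of IGF1R_flfl 1, 3 and 13 lay below every library titled OMP_IGF1R, and IGF1R_flfl 2 above every one. For Npy the log2 fold change was 0.28 (SE 0.255, 95% interval -0.29 to 0.85, edgeR adjusted p = 0.555). Without IGF1R_flfl 2 it was 0.62 (SE 0.172, 95% interval 0.24 to 1.002), with an edgeR p of 0.00463 before adjustment and an edgeR adjusted p = 0.0505, just outside the threshold. All 4 libraries titled OMP_IGF1R were then above the 3 others.

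Frzb and Matn4 encode secreted proteins. Frzb (ENSMUSG00000027004, chromosome 2, 80411970 to 80447625), a decoy that binds Wnt ligands outside the cell, stood at 9.69, 10.3, 11.3 and 11.6 CPM in OMP_IGF1R 11, 12, 17 and 18, and at 9.13, 11.62, 9.56 and 9.58 CPM in IGF1R_flfl 1, 2, 3 and 13. IGF1R_flfl 2 was level with the highest library of the other group, and the remaining 3 libraries titled IGF1R_flfl lay just under the lowest. The log2 fold change of Frzb was 0.11 (SE 0.107, 95% interval -0.13 to 0.34, edgeR adjusted p = 0.606), and 0.20 without IGF1R_flfl 2 (edgeR adjusted p = 0.267). Matn4 (ENSMUSG00000016995, chromosome 2, 164389393 to 164405160), a matrilin that joins filaments of the extracellular matrix, stood at 23.9, 17.4, 19.7 and 18.05 CPM in OMP_IGF1R 11, 12, 17 and 18, and at 16.7, 20.7, 20.03 and 19.3 CPM in IGF1R_flfl 1, 2, 3 and 13. Apart from OMP_IGF1R 11 its groups were intermixed. The log2 fold change of Matn4 was 0.04 (SE 0.110, 95% interval -0.20 to 0.28, edgeR adjusted p = 0.871). Rbpjl lies on the opposite strand over 2020 bases of Matn4 and stood at 1.30 to 2.14 CPM.

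**Figure D2:**
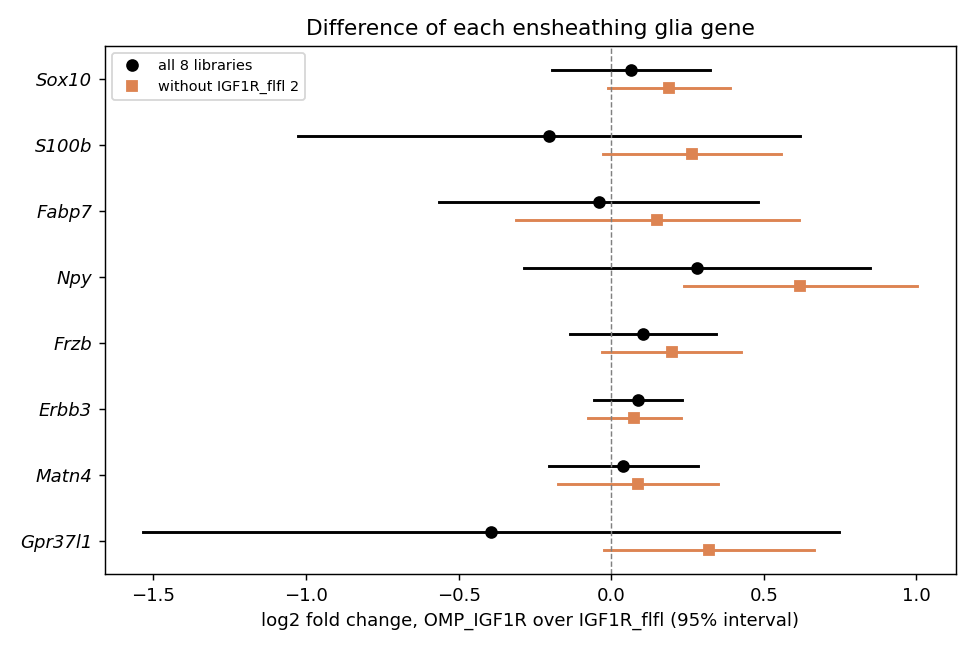
Log2 fold changes of the 8 genes (OMP_IGF1R over IGF1R_flfl, edgeR) with 95% intervals, from all 8 libraries and without IGF1R_flfl 2. With all libraries the values run from -0.39 (Gpr37l1) to 0.28 (Npy) and each interval includes 0, and without IGF1R_flfl 2 all 8 values are above 0, with only the interval of Npy clear of it.

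The genes differed in how far the library high in brain glial genes stood out. Against the mean of IGF1R_flfl 1, 3 and 13, the level in IGF1R_flfl 2 was 3.50 times for Gpr37l1, 2.49 for S100b, 2.02 for Npy and 1.54 for Fabp7. The ratio was 1.33 for Sox10, 1.23 for Frzb, 1.11 for Matn4 and 0.937 for Erbb3. The genes were put in this order after the ratios were seen, and whether the ratios fall into groups was not tested. In the same library Mobp, a myelin gene of oligodendrocytes, was at 260.8 CPM, 410 times the mean of the other 3 in its group. Mbp, the myelin basic protein gene, had a ratio of 25.2, and Gfap, the intermediate filament of astrocytes, one of 31.7. Mog, a defining oligodendrocyte gene that was too low for the test, had 393 reads in IGF1R_flfl 2 and 0 to 5 reads in each of the other 7 libraries. The transcription factor genes Olig1 and Olig2 did not share this, with ratios of 1.11 and 0.830. The part of brain tissue in the levels of the ensheathing glia genes in IGF1R_flfl 2 was not tested.

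**Figure D3:**
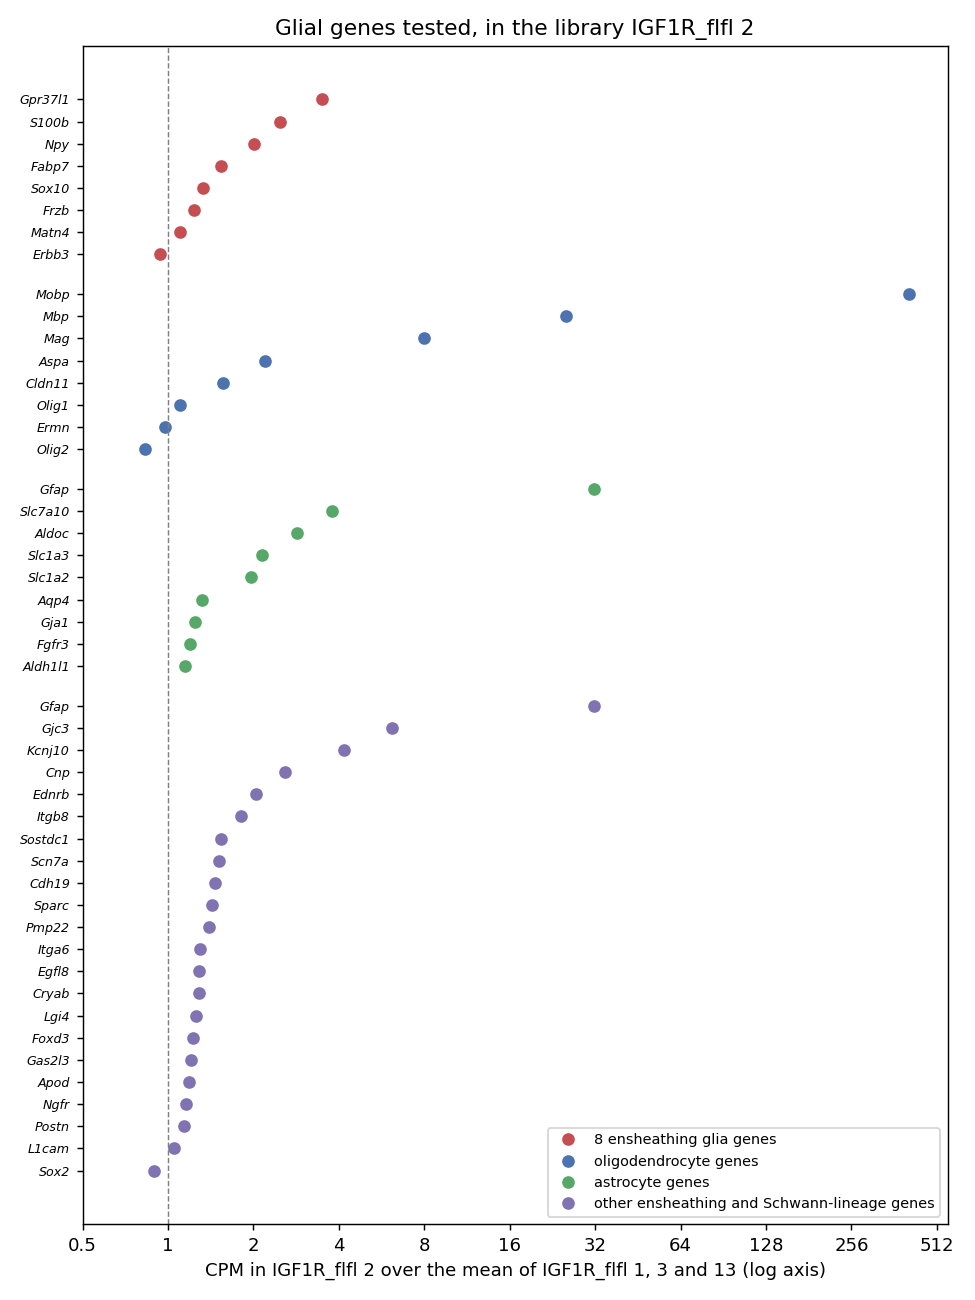
Level of tested genes of 4 glial lists in the library IGF1R_flfl 2, as CPM over the mean of IGF1R_flfl 1, 3 and 13 (log axis), with each point a gene and the dashed line at 1. The ensheathing glia genes run from 0.937 (Erbb3) to 3.50 (Gpr37l1), and Mobp, at 410, lies farthest out among the points.

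With IGF1R_flfl 2 left out, 0 of the 8 genes were called by edgeR, where 9.09% of 17475 genes were (3.13% higher, 5.96% lower). Npy alone had an unadjusted edgeR p under 0.05, a level reached by 24.2% of all genes. The libraries titled OMP_IGF1R lay above the 3 others without overlap for 2 of 8 genes, Npy and Frzb, and for 9.55% of all genes. The log2 fold changes were all above 0, from 0.08 for Erbb3 to 0.62 for Npy, with a median of 0.19. For all genes the median was 0.01, with 52.3% above 0. IGF1R_flfl 2 was the highest library for 6 of the 8 genes, so leaving it out of its group raises their fold changes by itself. With all 8 libraries the median of the 8 genes was 0.05 with 5 above 0, beside -0.01 for all genes with 47.5% above 0. The spread within the group shrank without that library: the coefficient of variation of the libraries titled IGF1R_flfl was 15.4% in place of 77.3% for Gpr37l1, 20.7% in place of 55.6% for S100b and 15.8% in place of 41.8% for Npy. For Fabp7 it was 28.0% in place of 31.1%, so the spread of that gene did not rest on the one library.

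Per kilobase of annotated exon, the 8 genes ran in the order Fabp7, S100b, Erbb3, Sox10, Npy and Gpr37l1, Matn4 and Frzb. Fabp7 averaged 63.0 ± 10.6 CPM per kilobase in the libraries titled OMP_IGF1R and 64.8 ± 20.2 in those titled IGF1R_flfl (SD, n = 4 each). S100b averaged 28.8 ± 2.75 CPM per kilobase in OMP_IGF1R and 33.1 ± 18.4 in IGF1R_flfl, and its values overlapped those of Erbb3, with 23.0 ± 1.62 in OMP_IGF1R and 21.7 ± 1.19 in IGF1R_flfl. Sox10 followed with 15.9 ± 1.41 CPM per kilobase in OMP_IGF1R and 15.2 ± 2.63 in IGF1R_flfl. Npy had 7.25 ± 0.904 in OMP_IGF1R and 5.95 ± 2.49 in IGF1R_flfl, and Gpr37l1 6.93 ± 1.28 in OMP_IGF1R and 9.07 ± 7.01 in IGF1R_flfl, neighbours whose values overlapped. The means of IGF1R_flfl include IGF1R_flfl 2, at 60.1 CPM per kilobase for S100b, 19.5 for Gpr37l1 and 9.56 for Npy. Matn4, at 3.82 ± 0.563 CPM per kilobase in OMP_IGF1R and 3.71 ± 0.335 in IGF1R_flfl, and Frzb, at 3.31 ± 0.270 in OMP_IGF1R and 3.08 ± 0.346 in IGF1R_flfl, were the lowest and overlapped as well.

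Read counts of the other 7 genes were also set against those of Sox10 in the same library, which takes out the scaling. S100b had 0.879 ± 0.0432 reads per read of Sox10 in the libraries titled OMP_IGF1R and 1.01 ± 0.372 in those titled IGF1R_flfl, where IGF1R_flfl 2 reached 1.56. Erbb3 had 2.86 ± 0.240 reads per read of Sox10 in OMP_IGF1R and 2.88 ± 0.604 in IGF1R_flfl (SD, n = 4 each). For Frzb the ratio was 0.223 ± 0.0363 in OMP_IGF1R and 0.216 ± 0.0184 in IGF1R_flfl, and for Matn4 it was 0.406 ± 0.0401 in OMP_IGF1R and 0.419 ± 0.0559 in IGF1R_flfl. The groups overlapped for all 7 ratios, with IGF1R_flfl 2 and without it. Fabp7 ran from 1.31 to 1.88 reads per read of Sox10 in OMP_IGF1R and from 1.43 to 1.95 in IGF1R_flfl.

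The wider programme of the same cells was read from 24 other tested genes of ensheathing glia and the Schwann lineage. By edgeR, 0 of 24 were called (0 higher, 0 lower), beside 8.42% of all genes, and their median log2 fold change was 0.03, with 15 of 24 above 0. Foxd3, a crest transcription factor, stood at 8.01, 8.59, 6.99 and 6.22 CPM in OMP_IGF1R 11, 12, 17 and 18, and at 4.27, 6.67, 5.31 and 6.77 CPM in IGF1R_flfl 1, 2, 3 and 13. Ngfr, the low-affinity neurotrophin receptor of ensheathing glia, stood at 5.61, 4.86, 5.09 and 5.38 CPM in OMP_IGF1R 11, 12, 17 and 18, and at 3.33, 4.50, 3.49 and 4.86 CPM in IGF1R_flfl 1, 2, 3 and 13, where IGF1R_flfl 13 was level with OMP_IGF1R 12 to 3 digits. Without IGF1R_flfl 2, all 24 log2 fold changes were above 0 with a median of 0.22, beside 52.3% of all genes above 0. Leaving out that library raises by itself the values of genes that were high in it. Of the 24 genes, 1 was then called higher, Gfap (1.03, edgeR adjusted p = 0.0347, against -2.10 with all libraries), while 3.13% of all genes were called higher. Of 9 tested astrocyte genes, which include Gfap, edgeR called 0 with all libraries. Without IGF1R_flfl 2 it called 2 of the 9 higher, Gfap and Aldh1l1 (0.29, edgeR adjusted p = 0.0357). It called 1 lower, Slc1a2, a glutamate transporter (-0.38, edgeR adjusted p = 0.0242). Of all genes, 3.13% were then called higher and 5.96% lower, and no list was tested as a set. Foxd3 and Ngfr were singled out after their values were seen, and with all libraries each had a log2 fold change of 0.37. Neither was called (edgeR adjusted p = 0.219 for Foxd3 and 0.171 for Ngfr). Others of the 24 genes lay below 0 with all libraries, such as Kcnj10 (-0.57, edgeR adjusted p = 0.597) and Cnp (-0.30, edgeR adjusted p = 0.660).

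**Figure D4:**
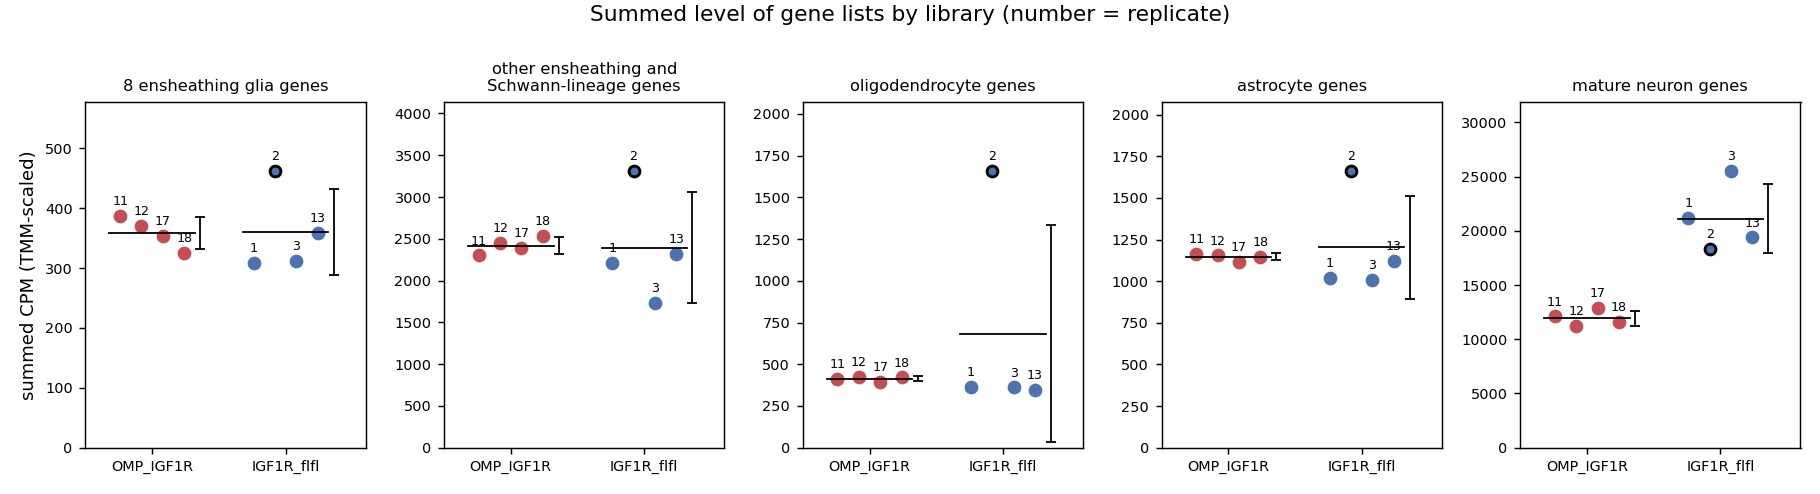
Summed CPM per library of 5 lists of cells in the dissection, with the libraries titled OMP_IGF1R left of those titled IGF1R_flfl, lines at the group means, bars for the SD and a ring around IGF1R_flfl 2. The 8 ensheathing glia genes sum to 325 to 387 CPM in the libraries titled OMP_IGF1R and to 309 to 462 CPM in those titled IGF1R_flfl, and the oligodendrocyte list reaches 1658 CPM in IGF1R_flfl 2.

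Lists of other cells of the dissection were set beside these genes. Of all genes tested, edgeR called 2.87% higher and 5.56% lower, so 0 calls in a list of 5 to 13 genes cannot be told apart from that share. Of 19 mature sensory neuron genes 17 were lower and 0 higher in the libraries titled OMP_IGF1R (median log2 fold change -0.64), and of 12 immature neuron genes 8 were higher and 0 lower (median 0.73). The lists of fibroblasts, of endothelium and pericytes and of macrophages, cells of the lamina propria that surround the axon bundles, had 0 called genes of 7, 7 and 6 by edgeR, with medians of 0.22, 0.16 and 0.24. Without IGF1R_flfl 2 these medians were 0.27, 0.21 and 0.29, next to 0.19 for the ensheathing glia genes. Of the 10 cartilage and bone genes and 13 gland genes tested, 0 were called, with medians of 0.02 and -0.13. Of 9 sustentacular cell genes, 5 skeletal muscle genes and 10 genes of myelinating Schwann cells, 0 were called, and of 10 bulb neuron genes 1 was, Eomes, lower (-0.49, edgeR adjusted p = 0.0293, 0.0126 to 0.0894 with 1 library left out, and 0.15 on the log2 scale under scaling to mature neuron genes). These counts are from TMM scaling with all 8 libraries. The part of these shifts in cell makeup in the values of the ensheathing glia genes was not tested.

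Olig1 and Olig2 were the 2 genes of the oligodendrocyte list that rose, with 0 of its 8 tested genes lower, beside 2.87% higher and 5.56% lower of all genes. Olig2 was at 62.7, 63.6, 56.3 and 69.8 CPM in OMP_IGF1R 11, 12, 17 and 18, and at 42.2, 36.1, 48.6 and 39.8 CPM in IGF1R_flfl 1, 2, 3 and 13. Every library titled OMP_IGF1R was above every one titled IGF1R_flfl, and the library rich in myelin RNA had the lowest Olig2 of all. The log2 fold changes were 0.60 for Olig2 (SE 0.0943, edgeR adjusted p = 0.00610) and 0.50 for Olig1 (SE 0.0881, edgeR adjusted p = 0.00965), and both calls held in each of the 8 fits that left out 1 library. Both factors are textbook regulators of the oligodendrocyte lineage. The myelin genes Mbp and Mobp were not called, with log2 fold changes of -2.53 and -4.84 with all libraries, and of 0.29 and 1.92 without IGF1R_flfl 2.

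Partners of the 8 proteins were read from lists of their ligands, receptors and relatives. Of all genes tested, edgeR called 2.87% higher and 5.56% lower, and 1 call in so short a list cannot be told apart from that share. Of 8 neuregulin and ErbB genes, 1 fell and 0 rose: Bace1, a protease that cleaves neuregulin among other proteins, stood at 144.1, 135.8, 148.6 and 148.5 CPM in OMP_IGF1R 11, 12, 17 and 18, and at 196, 173, 185 and 175 CPM in IGF1R_flfl 1, 2, 3 and 13. The groups did not overlap, and the log2 fold change was -0.34 (SE 0.0582, edgeR adjusted p = 0.00874), with the other sign (0.30) under scaling to mature neuron genes. Erbb2, the partner of Erbb3, was at 66.7 to 78.2 CPM in OMP_IGF1R and 57.8 to 71.1 CPM in IGF1R_flfl (log2 0.12, edgeR adjusted p = 0.375). Nrg1, the ligand, was at 3.57 to 5.61 CPM in OMP_IGF1R and 3.51 to 4.64 CPM in IGF1R_flfl. The related receptor Egfr was at 25.8 to 32.2 CPM in OMP_IGF1R and 29.2 to 30.5 CPM in IGF1R_flfl.

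For Npy, the list of receptors and processing enzymes had 1 of 6 genes higher and 0 lower, beside 2.87% higher and 5.56% lower of all genes. Pcsk1, a convertase that cuts peptide precursors, was at 4.29, 6.48, 4.82 and 4.92 CPM in OMP_IGF1R 11, 12, 17 and 18, and at 2.03, 3.89, 2.62 and 2.95 CPM in IGF1R_flfl 1, 2, 3 and 13. The groups did not overlap (log2 0.84, SE 0.212, edgeR adjusted p = 0.0381), but the call held in 1 of the 8 fits that left out a library, the one without IGF1R_flfl 2. Over those fits its edgeR adjusted p ran from 0.0105 to 0.118. Npy1r, a receptor of neuropeptide Y, was at 6.50 to 8.33 CPM in OMP_IGF1R and 4.56 to 6.14 CPM in IGF1R_flfl, a log2 fold change of 0.42 that did not pass by edgeR (edgeR adjusted p = 0.0835) but did by DESeq2 (adjusted p = 0.0443) and limma voom (adjusted p = 0.0429). For Gpr37l1, the proposed ligand gene Psap was at 1469 to 1605 CPM in OMP_IGF1R and 1691 to 2023 CPM in IGF1R_flfl without overlap (log2 -0.23). It likewise did not pass by edgeR (edgeR adjusted p = 0.0870) but did by DESeq2 (adjusted p = 0.0148) and limma voom (adjusted p = 0.0403), and had the other sign (0.41) under scaling to mature neuron genes. The related receptor Gpr37 was at 24.2 to 28.9 CPM in OMP_IGF1R and 27.7 to 41.5 CPM in IGF1R_flfl.

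Among relatives of S100b, 1 of 14 tested S100 genes rose and 1 fell, near the shares of all genes (2.87% higher, 5.56% lower). S100z rose by a log2 fold change of 1.30 (edgeR adjusted p = 0.0267), with 1.84 to 3.72 CPM in OMP_IGF1R and 0.652 to 1.55 CPM in IGF1R_flfl, and held its call in 3 of 8 fits without a library. S100a5, known from olfactory sensory neurons, fell with -0.36 (edgeR adjusted p = 0.0492; 0.28 under scaling to mature neuron genes), with 752 to 817 CPM in OMP_IGF1R and 843 to 1159.7 CPM in IGF1R_flfl, and held its call in 2 of 8. Over these fits the edgeR adjusted p ran from 0.0166 to 0.0656 for S100z and from 0.0212 to 0.141 for S100a5. The call of S100a5 was also lost in edgeR with DESeq2 size factors (edgeR adjusted p = 0.0554) and with upper-quartile factors (edgeR adjusted p = 0.0746). Of the 8 secreted Wnt antagonists related to Frzb, the 4 SOX factors beside Sox10, the 3 other fatty acid-binding proteins and the 1 other matrilin that were tested, 0 were called by edgeR, beside 8.42% of all genes.

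Over all 8 libraries, Sox10 followed the rest of the list most closely, and over the 7 without IGF1R_flfl 2 Gpr37l1 did, with Sox10 next. Pearson's r between a gene's log CPM and the mean standardised log CPM of the other 7 genes was 0.91 for Sox10, 0.86 for S100b, 0.86 for Gpr37l1, 0.85 for Npy and 0.75 for Fabp7 over 8 libraries. It was 0.47 for Matn4, 0.46 for Frzb and -0.38 for Erbb3. Over the 7 libraries without IGF1R_flfl 2, Gpr37l1 had 0.89, Sox10 0.88, S100b 0.82, Npy 0.75, Fabp7 0.65, Matn4 0.51, Frzb 0.21 and Erbb3 -0.04. These values describe points that share dissection, depth and scaling, and Erbb3 stood apart from the list in both sets.

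The 8 other genes whose log CPM followed the mean of the ensheathing glia genes most closely over 8 libraries were Cadm4, Gm15612, Inf2, 4933431E20Rik, Ccdc85a, Nanos1, Ostm1 and Cap2, with r of 0.96 to 0.97. Over the 7 libraries without IGF1R_flfl 2 they were Edn1, Pecr, Ttyh1, Mamdc4, Sfrp5, Bpifb6, Inf2 and Aph1a, with r of 0.97 to 0.98. Inf2 is the one gene in both. The likeness was not computed with any other library left out, so the part of that library in the order was not tested. In the authors' deposited table, the adjusted p of the members ran from 0.432 for Erbb3 to 0.949 for Fabp7, and Gpr37l1 had none. The direction of that table's fold changes is not stated there, and all 2122 genes that it calls and that were tested here had the sign of OMP_IGF1R over IGF1R_flfl.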

How the data were processed

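RNA from dissected olfactory epithelium was made into stranded, poly(A)-selected libraries for paired-end sequencing, per the labels' protocols. The deposited table holds raw read counts per gene. The reads were processed by the authors with DESeq2, SAMtools 1.2, TopHat2 2.0.14 and Trim Galore 0.3.7, with GRCm38 (mm10) as the genome, per the submitters' processing notes. How reads were counted, and with which strand setting, is not given in the sources used here. The authors' deposited comparison table gives, per the file headers, a mean normalized signal, a log2 fold change and its error, a score of the test, and raw and adjusted p-values, and was used for description alone. Gene names and coordinates are those of the deposited table, which holds 25913 genes (25012 IDs matched the reference table, after 23 were trimmed of description text).

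Libraries were grouped by title. The numbers that open the titles run together within a group, so a batch that follows them cannot be told apart from the group. Between replicates of a group, chi-square averaged 11.4 to 103 per gene, above sampling noise, and no library was counted as a copy.

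Counts were tested with edgeR 4.0.16 (robust quasi-likelihood F-test, TMM, filterByExpr) under R 4.3.3, and p-values were adjusted by Benjamini-Hochberg over the 17381 genes left by the filter and a threshold of 0.05. CPM use TMM library sizes, and correlations use log CPM with a prior count of 2. The depth, 18802471 to 27793375 counts in a library, sets the counting error, and Npy had the fewest reads. The tests were run on simulated data first. Alternatives were DESeq2 1.42.0, limma 3.58.1 (voom with sample weights), other scalings and filters, each library left out, and, chosen after seeing the data, edgeR without robust estimation and the likeness without IGF1R_flfl 2.

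The members and the 23 lists were chosen with earlier results of these data known. The rule for naming genes took the 8 members, up to 4 called genes and 2 levels per list, genes a member binds, Igf1r and Omp, genes that overlap a member, and the 8 genes most like the members. Not every gene under that rule is named in the text. Outside it the text also names Foxd3, Ngfr, Kcnj10, Cnp, Gfap, Mobp, Mog, Aldh1l1, Slc1a2 and the genes most like the members without IGF1R_flfl 2. Members of long lists not discussed are given by counts, and list members withheld for evaluation are counted but not reported singly. Exon lengths are unions of GENCODE exons on GRCm38.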

Additional observations from a re-analysis of the deposited data

Results flagged for a closer look

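In 62 groups of 4 libraries, over the 8 genes and the summed lists, 12 held a library far from the other 3 of its group. Chance gives about 1 in 20 for a single group. The same 8 libraries enter every gene and list, so the 62 groups are not independent, and their count was not tested. Among the ensheathing glia genes, Npy was at 3.34 CPM in OMP_IGF1R 18, below the 4.30 to 4.44 CPM of OMP_IGF1R 11, 12 and 17. Gpr37l1 was at 44.3 CPM in IGF1R_flfl 2, above the 10.5 to 14.3 CPM of IGF1R_flfl 1, 3 and 13.

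Lists of related proteins had 4 such libraries. The fatty acid-binding protein genes other than Fabp7 summed to 53.7 CPM in OMP_IGF1R 17, against 22.3 to 24.8 CPM in the other libraries titled OMP_IGF1R, and to 29.4 CPM in IGF1R_flfl 2, against 13.7 to 15.7 CPM in the other libraries titled IGF1R_flfl. The NPY receptor and peptide processing genes summed to 675 CPM in IGF1R_flfl 2, against 599 to 608 CPM in the rest of its group. The prosaposin list summed to 2052 CPM in IGF1R_flfl 3, against 1733 to 1769.8 CPM.

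Lists of other cells had 6. IGF1R_flfl 2 was high in myelinating Schwann cell genes, which include myelin genes of oligodendrocytes (1374 CPM, against 309.8 to 362 CPM), in oligodendrocyte genes (1658 CPM, against 348 to 364 CPM) and in olfactory bulb neuron genes (209.7 CPM, against 141 to 144 CPM). IGF1R_flfl 3 was low in fibroblast genes (2007 CPM, against 2643 to 2695 CPM). OMP_IGF1R 17 was high in skeletal muscle genes (203 CPM, against 6.18 to 8.42 CPM), and OMP_IGF1R 11 was low in sustentacular cell genes (26442 CPM, against 27659 to 27815 CPM).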

How the results depend on the processing

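No paired analysis was possible because the groups share no replicate number. No ensheathing glia gene was called under any alternative but the scaling to mature neuron genes. That scaling called 5 of the 8 higher (Sox10, Npy, Frzb, Erbb3 and Matn4) and moved the median of all genes to 0.63. It called 14030 of the 17381 genes in all, 13946 of them higher, and the summed log2 ratio of the 8 genes was 0.61 under it. It gave log2 fold changes of 0.38 for S100b, 0.56 for Fabp7, 0.18 for Gpr37l1, 0.30 for Bace1, 0.41 for Psap, 0.28 for S100a5 and 0.15 for Eomes, each below 0 under TMM with all libraries. Relative to the shift of all genes these last changes stayed below 0.

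Leaving out 1 library gave 681 to 1589 called genes (816 without OMP_IGF1R 11, 689 without OMP_IGF1R 12, 681 without OMP_IGF1R 18), and a summed log2 ratio of the 8 genes of -0.07 to 0.15. Signs turned for Sox10 (-0.0010 to 0.19), S100b (-0.37 to 0.27), Fabp7 (-0.18 to 0.15), Matn4 (-0.063 to 0.096), Gpr37l1 (-0.61 to 0.32) and Gfap (-2.47 to 1.03). Without IGF1R_flfl 2 and OMP_IGF1R 17 together, the values were 0.27 for S100b, 0.11 for Fabp7, 0.32 for Gpr37l1 and 1.13 for Gfap. Limma voom gave 0.064 for Gfap. The cause was not tested. Npy rests on the fewest reads, and differences inside the printed intervals were not detectable.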
